A study of Mus musculus with 15 samples.

Results

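The 40 genes described here are interferon-stimulated genes, chosen by name from what is known of the interferon response. They and the further gene lists were chosen with earlier results of these data known. Counts below therefore describe these genes and are no independent test of them. Of these 40, 36 had a probe set annotated with that gene symbol alone and were among the 19938 genes analysed. The probe sets of Isg15, Gbp2 and Igtp named several genes each, and Ifi44 was named by none, so these members were not analysed here. Irf1 had 2 probe sets of its own, of which the one with the higher mean was used.

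The arrays held liver RNA of 15 male mice aged 7.5 months with a spread of 2.5 weeks, 1 mouse per array. 3 PPARα-null mice received 4 daily gavage doses of di(2-ethylhexyl) phthalate (DEHP), 1150 mg per kg body weight per day in corn oil, and 4 PPARα-null mice received corn oil alone on the same schedule. Among wild-type mice, 4 received DEHP and 4 received corn oil. The null mice carried the Pparatm1Gonz allele in the germline and descended from 129S4/SvJae-Pparatm1Gonz/J stock, the wild-type mice from 129S1/SvlmJ stock, and the labels describe an inbred colony on 129/Sv, so genotype and substrain cannot be told apart. Animals are called by the number of their label after KO for null and WT for wild type. DEHP is a plasticizer whose metabolites activate PPARα, a nuclear receptor that controls fatty acid breakdown in hepatocytes. The series title puts PPARα and a further receptor, CAR, at the centre of the DEHP response.

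Interferons are cytokines that cells secrete when they sense viral nucleic acid or other danger. Type I and type III interferons signal through JAK kinases to a complex that holds STAT2 and IRF9 and binds a promoter sequence called the ISRE, while type II interferon signals through STAT dimers that bind a sequence called GAS. The genes switched on in this way encode antiviral proteins, sensors, chemokines and feedback regulators, and IRF7 among them amplifies the response. In liver, hepatocytes, Kupffer cells and endothelial cells can all respond.

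Promoters were taken from RefSeq on the mouse build GRCm38.p6, 250 bases before to 50 bases after the annotated gene start, and 26 of the 36 measured members had an entry. The core of the ISRE, GAAA followed by any 2 bases and GAAA again, was searched on both strands and stood in the promoters of 11 of these 26 members and in 1079 of 27025 genes (3.99%). The longer form, GGAAA followed by any 2 bases and GAAAC, whose matches all hold the core, stood in 7 of 26 members and in 84 of all genes (0.311%). The GAS letters TTCNNNGAA stood in 5 of 26 members and in 9.55% of all genes. A match is a run of letters in this window and no evidence of binding. The 4 promoters below belong to members called between genotypes, 3 with a core match in capitals and 1 with none. Irf7 was called under both treatments, Cxcl10 and Gbp3 under corn oil and Stat2 under DEHP. Among other members called under DEHP, Ifih1 and Irgm1 held a core match. Cxcl9, Herc6, Oasl1, Dtx3l, Xaf1 and Lgals3bp, also called under DEHP, held none, so the 4 shown do not stand for the called members.

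Cxcl10, chr5:92348840-92349139, minus strand: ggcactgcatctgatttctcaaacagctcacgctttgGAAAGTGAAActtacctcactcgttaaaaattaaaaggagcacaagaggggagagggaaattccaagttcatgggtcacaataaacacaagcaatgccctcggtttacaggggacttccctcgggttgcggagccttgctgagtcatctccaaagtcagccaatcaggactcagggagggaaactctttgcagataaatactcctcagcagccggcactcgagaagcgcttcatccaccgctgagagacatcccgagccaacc
Gbp3, chr3:142559794-142560093, plus strand: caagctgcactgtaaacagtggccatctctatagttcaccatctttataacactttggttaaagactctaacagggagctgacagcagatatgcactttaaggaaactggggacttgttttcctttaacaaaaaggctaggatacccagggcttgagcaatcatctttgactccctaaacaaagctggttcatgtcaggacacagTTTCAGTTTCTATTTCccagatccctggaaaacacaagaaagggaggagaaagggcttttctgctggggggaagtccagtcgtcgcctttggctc
Stat2, chr10:128270248-128270547, plus strand: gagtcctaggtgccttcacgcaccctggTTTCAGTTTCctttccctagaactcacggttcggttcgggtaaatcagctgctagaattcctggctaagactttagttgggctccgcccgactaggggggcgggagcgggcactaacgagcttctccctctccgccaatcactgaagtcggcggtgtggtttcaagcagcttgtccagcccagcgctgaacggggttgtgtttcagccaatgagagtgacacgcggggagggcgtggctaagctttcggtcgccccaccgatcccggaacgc
Irf7, chr7:141266375-141266674, minus strand: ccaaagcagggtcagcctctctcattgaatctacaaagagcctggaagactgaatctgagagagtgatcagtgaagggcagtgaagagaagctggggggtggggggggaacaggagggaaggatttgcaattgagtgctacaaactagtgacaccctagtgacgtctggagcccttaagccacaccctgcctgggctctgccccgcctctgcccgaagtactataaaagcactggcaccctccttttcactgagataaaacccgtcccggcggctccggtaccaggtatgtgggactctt

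The core match of Cxcl10 began at position -213, counted from the annotated start, and that of Stat2 at -222. Gbp3 had overlapping matches at -45 and -39, and its other annotated promoter had none. The capitals of Gbp3 and Stat2 read as the reverse complement, since the match lay on the other strand. The 300 bases of Irf7 held no core match. Usp18, Mx1, Mx2, Rtp4, Oas2, Parp14, Dhx58, Zbp1, Parp9 and Iigp1 had no promoter entry in the table used.

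All values are log2 of the deposited intensity, on arrays whose medians lay between 44.4 and 47.5 intensity units. Differences are log2 differences ± standard error from limma. A gene is said to be called, or to have changed, where its p adjusted over all 19938 genes by the Benjamini-Hochberg method was below 0.05. Ppara itself was lower in null livers, with differences of -0.64 ± 0.13 (adjusted p = 0.00422) under DEHP and -0.69 ± 0.12 (adjusted p = 0.00645) under corn oil, although its probe set still gave signal there. Cyp4a14, a PPARα target, read 0.13 ± 0.48 (adjusted p = 0.951) after DEHP in null livers and rose by 4.97 ± 0.44 (adjusted p = 9.76e-06) in wild-type livers. Cyp2b10, a CAR target, rose with DEHP by 1.55 ± 0.16 (adjusted p = 0.000635) in null livers and read 0.46 ± 0.15 (adjusted p = 0.115) in wild-type livers. The defining hepatocyte markers were high in every liver, with a mean over 9 genes of 12.90 to 13.05 in null livers and 12.81 to 12.88 in wild-type livers. The samples were whole tissue, in which fewer cells of a type and less RNA per cell cannot be told apart.

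Most interferon-stimulated genes read higher in PPARα-null livers than in wild-type livers. Under DEHP 34 of 36 members lay above 0, where 56.8% of all genes did so. Under corn oil 35 of 36 lay above 0, where 46.8% of all genes did so. For DEHP over corn oil no member was called in either genotype, where 0.471% of all genes were called in null and 3.86% in wild-type livers. The transcription factor Irf7, the deubiquitinase Usp18, the chemokine Cxcl10 and the antiviral genes Ifit1 and Ifit3 stood among the largest averages over both treatments. The map of all 36 genes in 15 livers shows this genotype pattern and 2 animals that stood apart from their groups. KO-118, a null mouse given corn oil, was the highest of its 4 animals in 29 of 36 genes. WT-58, a wild-type mouse given DEHP, was the highest of its 4 in 32 of 36. Counts of members and of the gene lists below are therefore also given without these animals, a setting chosen after their values were seen. Since the members' own values picked the animals, counts and p-values of this setting are descriptive and no valid test.

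**Figure D1:**
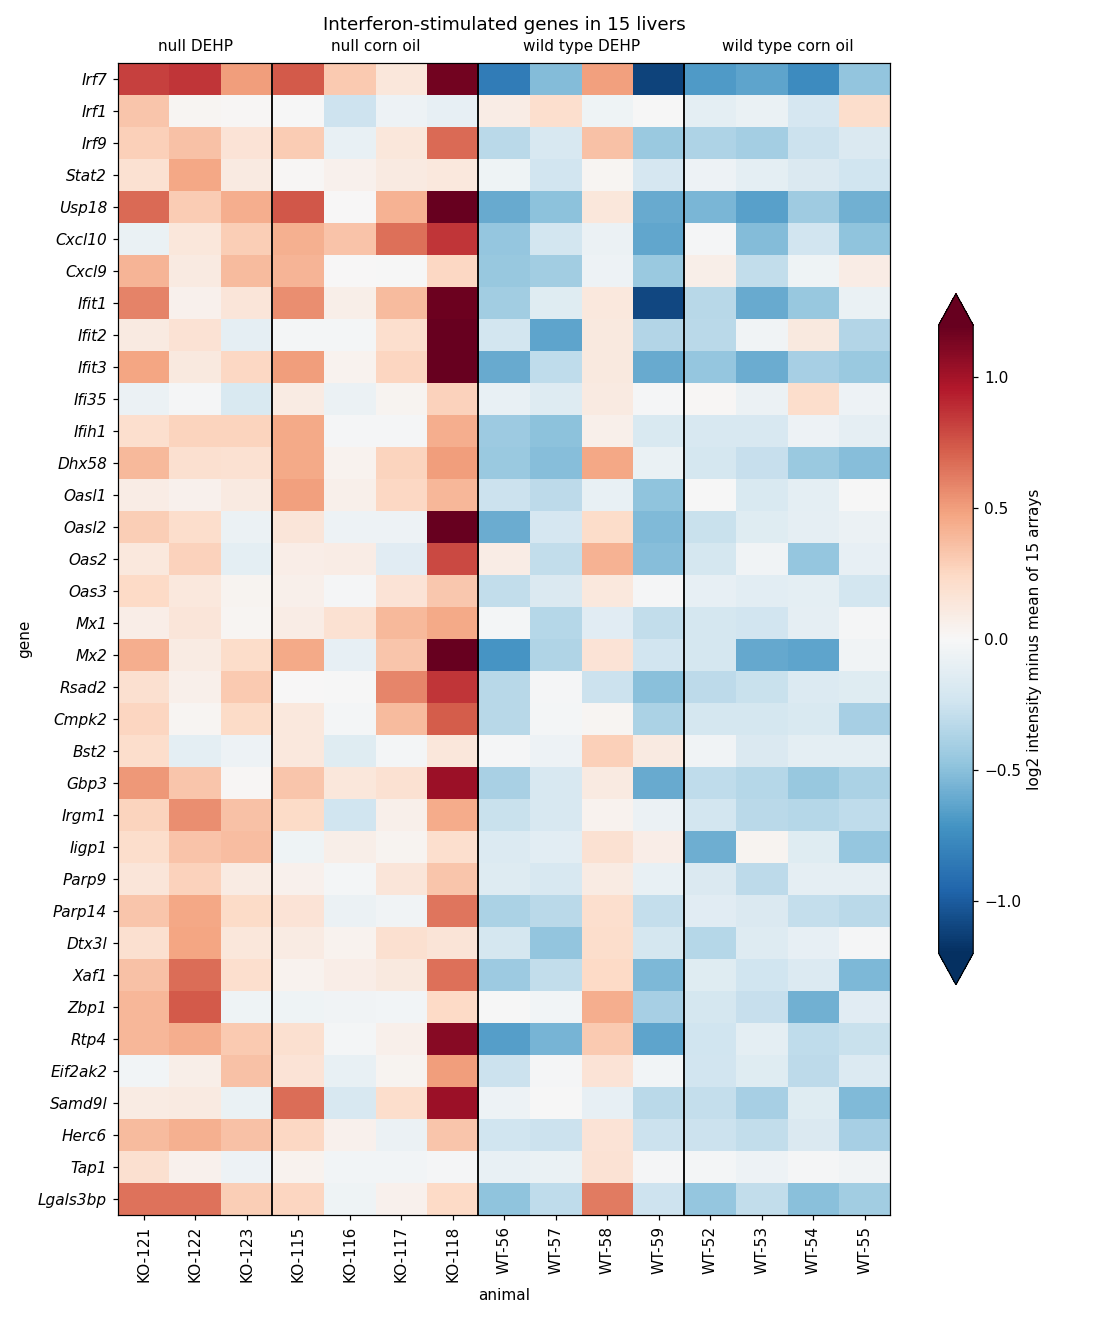
Log2 intensity of 36 interferon-stimulated genes (rows) in 15 livers (columns), as the deviation from the mean of all 15 arrays; red is above and blue below that mean, and colours saturate beyond the ends of the bar. Null livers stand left of wild-type livers; KO-118 is high in most rows, and WT-58 is high among the otherwise low wild-type DEHP livers.

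The median over the 36 genes of each animal's deviation from the 15-array mean condenses that map. It was 0.267, 0.199 and 0.173 in null DEHP livers and 0.164, -0.018, 0.125 and 0.5 in null corn oil livers, against -0.316, -0.222, 0.13 and -0.311 in wild-type DEHP livers and -0.217, -0.234, -0.182 and -0.198 in wild-type corn oil livers. WT-58 thus lay among the null livers on this measure and KO-118 above all other animals. KO-116 was the lowest null mouse, with the lowest value of its group in 25 genes, and still lay above all wild-type mice other than WT-58. The 4 wild-type corn oil livers lay within a narrow range.

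Under DEHP, 12 of 36 members were higher in null livers and 0 were lower, where 10.7% of all genes were called in either direction, 5.09% as higher and 5.61% as lower. The 12 were Irf7, Stat2, Usp18, Herc6, Cxcl9, Ifih1, Oasl1, Irgm1, Dtx3l, Parp14, Xaf1 and Lgals3bp. The median difference of the 36 was 0.421, against 0.024 over all genes. In 13 members every null DEHP liver lay above every wild-type DEHP liver, where 11.0% of all genes did so. Without WT-58 the count was 18, and without any 1 of WT-56, WT-57, WT-59 or KO-121 it was 6, and without KO-122 it was 3. Calls over the whole array in either direction moved as well. They numbered 2133 with every animal, 1950 without WT-58 and 1019 without KO-122. Without any 1 of WT-56, WT-57, WT-59 or KO-121 they numbered 1538 to 1781.

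Under corn oil, 5 of 36 members were higher in null livers and 0 were lower, where 1.19% of all genes were called in either direction, 0.642% as higher and 0.547% as lower. These were Irf7, Usp18, Cxcl10, Mx1 and Gbp3. The median difference was 0.422, against -0.008 over all genes. In 25 members every null liver lay above every wild-type liver, where 4.06% of all genes did so. Without WT-52, WT-53 or WT-54 the count was 2, and without WT-55, KO-115 or KO-118 it was 3. Without KO-116 it was 12, and without WT-58, which enters through the shared estimate of spread, it was 11. Calls over the whole array in either direction numbered 237 with every animal, 220 without KO-116 and 287 without WT-58. They numbered 159 to 182 without WT-52, WT-53 or WT-54, and 171 to 230 without WT-55, KO-115 or KO-118.

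The comparisons under DEHP and under corn oil shared no animal, though they shared 1 estimate of spread. Irf7 and Usp18 were called in both, which is 16.7% of the list under DEHP and 40.0% of the list under corn oil. Of members whose groups did not overlap, 10 were shared, 76.9% of those under DEHP and 40.0% of those under corn oil. The same shares over all genes were not computed, so whether this sharing exceeds that of the whole array was not tested. The mean of these differences, a contrast added after both had been seen, was called as higher for 27 of 36 members and as lower for 0, where 10.5% of all genes were called, 5.23% as higher and 5.3% as lower. Its median was 0.448, against 0.007 over all genes, and 23 of the 27 calls were kept whichever of the 15 animals was left out. The 9 members without a call in it were Irf1, Ifit2, Ifi35, Oasl2, Oas2, Bst2, Zbp1, Eif2ak2 and Tap1.

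**Figure D2:**
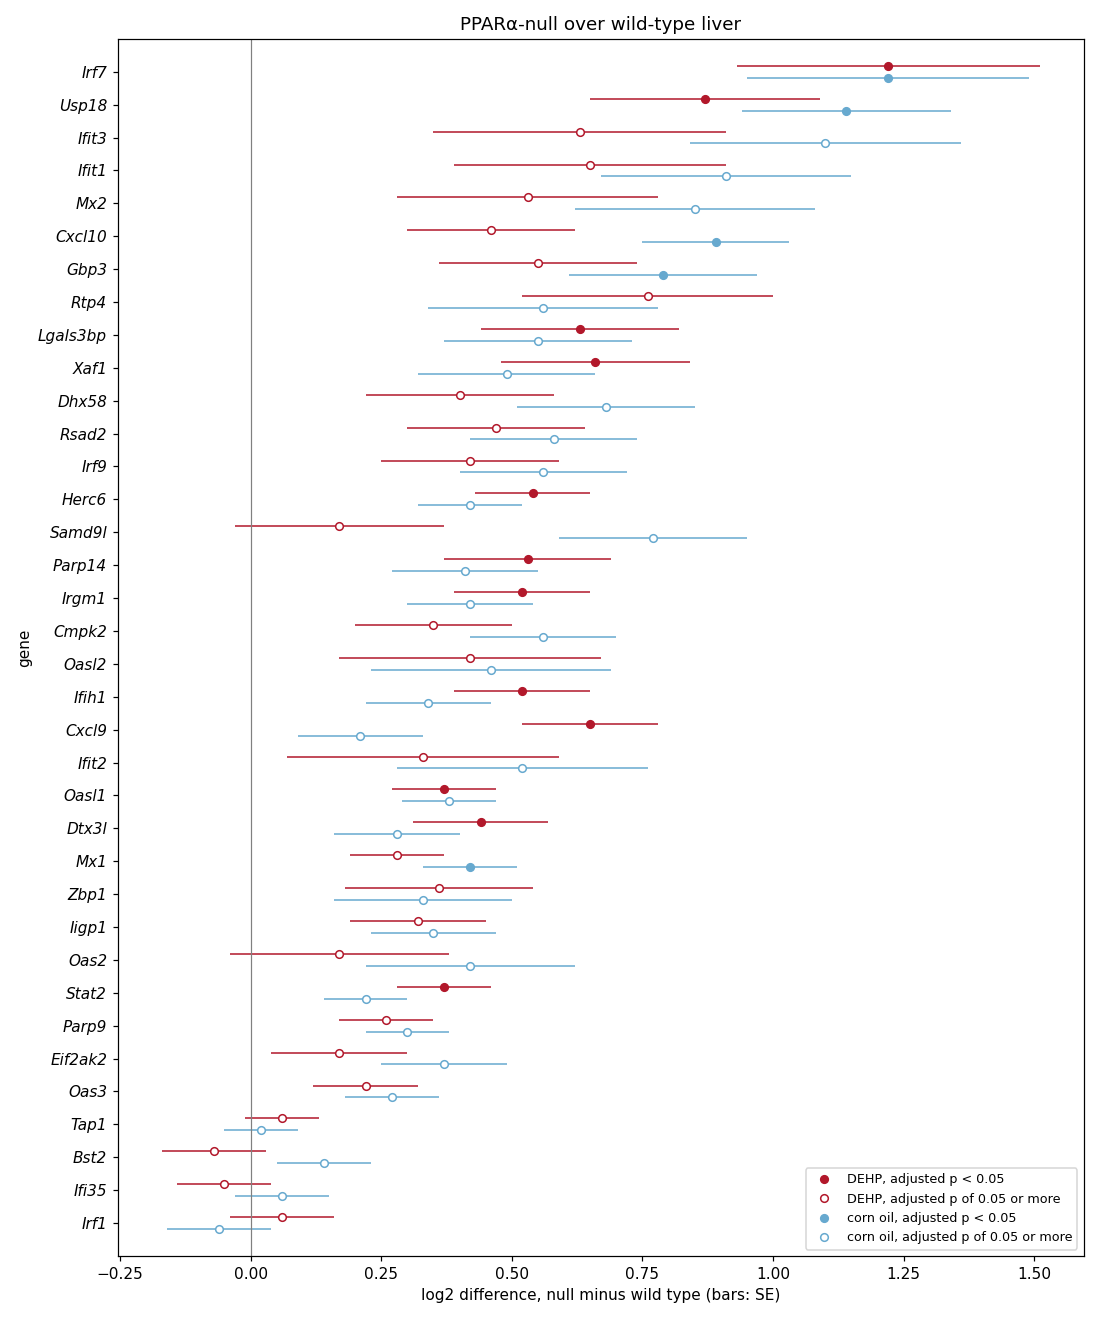
Log2 difference of PPARα-null over wild-type liver (x axis) for 36 interferon-stimulated genes (y axis, ordered by the mean of both differences), under DEHP (red, 3 null and 4 wild-type livers) and corn oil (blue, 4 and 4); bars are standard errors and filled points have an adjusted p below 0.05. Most genes lie right of 0 in both colours, with Irf7 at 1.22 in each, while Irf1, Ifi35, Bst2 and Tap1 lie close to 0.

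The transcription factors came first. Irf7, which drives interferon gene transcription and amplifies the response, had log2 values of 8.71, 8.74 and 8.39 in null DEHP livers and 8.62, 8.20, 8.02 and 9.04 in null corn oil livers, against 7.05, 7.37, 8.38 and 6.78 in wild-type DEHP livers and 7.21, 7.25, 7.13 and 7.41 in wild-type corn oil livers. Every null liver lay above every wild-type liver except WT-58, which nearly reached the lowest null DEHP liver. The difference between genotypes was 1.22 ± 0.29 (2.33-fold, adjusted p = 0.0126) under DEHP and 1.22 ± 0.27 (2.33-fold, adjusted p = 0.036) under corn oil. The call under DEHP depended on KO-122, since without KO-122 the adjusted p was 0.0644, and for corn oil without KO-115, KO-118, WT-52, WT-53, WT-54 or WT-55 the adjusted p was 0.0674 to 0.109. Averaged over both treatments the difference was 1.22 ± 0.20 (adjusted p = 0.00098), a call no left-out animal removed.

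Stat2, the STAT protein specific to type I and type III signalling, had values of 8.88, 9.16 and 8.80 in null DEHP livers and 8.71, 8.75, 8.80 and 8.82 in null corn oil livers, against 8.64, 8.47, 8.72 and 8.49 in wild-type DEHP livers and 8.63, 8.58, 8.52 and 8.46 in wild-type corn oil livers. Null and wild-type livers did not overlap under either treatment, but only the difference under DEHP was called. It was 0.37 ± 0.09 (1.29-fold, adjusted p = 0.0118) under DEHP, where without KO-122 the adjusted p was 0.0867, and 0.22 ± 0.08 (adjusted p = 0.232) under corn oil. Irf9, the DNA-binding partner of the STATs in the ISRE complex, differed by 0.42 ± 0.17 (adjusted p = 0.148) under DEHP and 0.56 ± 0.16 (adjusted p = 0.119) under corn oil, and by 0.49 ± 0.12 (adjusted p = 0.014) on average. Irf1, which responds most strongly to type II interferon, had values of 8.15, 7.84 and 7.83 in null DEHP livers and 7.81, 7.57, 7.76 and 7.72 in null corn oil livers, against 7.91, 8.02, 7.77 and 7.81 in wild-type DEHP livers and 7.70, 7.74, 7.62 and 8.03 in wild-type corn oil livers. Its 4 groups overlapped between genotypes, and its mean difference was 0.00 ± 0.07 with a 95% interval of -0.15 to 0.15. The same interval for Irf7 was 0.80 to 1.64.

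The ISG15 system modifies proteins with a ubiquitin-like tag, and 2 of its 3 members here were measured. Usp18, which removes ISG15 and also blocks the interferon receptor as a feedback inhibitor, had values of 6.87, 6.49 and 6.62 in null DEHP livers and 6.93, 6.19, 6.60 and 7.38 in null corn oil livers, against 5.58, 5.69, 6.32 and 5.58 in wild-type DEHP livers and 5.64, 5.53, 5.76 and 5.61 in wild-type corn oil livers. No null liver overlapped a wild-type liver of the same treatment, and WT-58 was again far above its group. The difference was 0.87 ± 0.22 (1.83-fold, adjusted p = 0.0185) under DEHP and 1.14 ± 0.20 (2.21-fold, adjusted p = 0.00817) under corn oil. The corn oil call was kept in every leave-out, but for DEHP without KO-121, WT-56 or WT-59 the adjusted p was 0.0533 to 0.0745. Herc6, the mouse ISG15 ligase, had values of 6.76, 6.81 and 6.73 in null DEHP livers and 6.63, 6.43, 6.31 and 6.71 in null corn oil livers, against 6.14, 6.12, 6.54 and 6.12 in wild-type DEHP livers and 6.12, 6.08, 6.21 and 5.98 in wild-type corn oil livers. Groups of the same treatment did not overlap, and its spread within groups was small apart from WT-58. Herc6 was higher by 0.54 ± 0.11 (1.45-fold, adjusted p = 0.00472) under DEHP in every leave-out, and read 0.42 ± 0.10 (adjusted p = 0.0595) under corn oil.

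The chemokines Cxcl10 and Cxcl9 attract T cells and NK cells through CXCR3. Cxcl10 had values of 6.14, 6.36 and 6.52 in null DEHP livers and 6.65, 6.57, 6.88 and 7.08 in null corn oil livers, against 5.76, 6.0, 6.15 and 5.60 in wild-type DEHP livers and 6.21, 5.70, 5.99 and 5.74 in wild-type corn oil livers. All 4 null corn oil livers lay above all 4 wild-type corn oil livers, whereas under DEHP WT-58 exceeded the lowest null liver, KO-121. The difference was 0.46 ± 0.16 (adjusted p = 0.0709) under DEHP and 0.89 ± 0.14 (1.85-fold, adjusted p = 0.00392) under corn oil, the second kept in every leave-out. Cxcl9, a target mainly of type II interferon, had values of 6.39, 6.09 and 6.36 in null DEHP livers and 6.39, 5.98, 5.97 and 6.23 in null corn oil livers, against 5.52, 5.56, 5.92 and 5.53 in wild-type DEHP livers and 6.05, 5.68, 5.93 and 6.07 in wild-type corn oil livers. It showed the other order, with no overlap under DEHP and overlap under corn oil. Its difference was 0.65 ± 0.13 (1.57-fold, adjusted p = 0.00412) under DEHP, kept in every leave-out, and 0.21 ± 0.12 (adjusted p = 0.524) under corn oil. Whether the genotype difference depended on treatment was tested by the interaction, which was -0.42 ± 0.21 (adjusted p = 0.404) for Cxcl10 and 0.44 ± 0.18 (adjusted p = 0.284) for Cxcl9, so no such dependence was called.

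Of 4 nucleic acid sensors, Ifih1 was called within a treatment and 2, Ifih1 and Dhx58, on average over treatments. Ifih1, which encodes the RNA sensor MDA5, had values of 8.30, 8.37 and 8.37 in null DEHP livers and 8.55, 8.08, 8.08 and 8.53 in null corn oil livers, against 7.66, 7.61, 8.16 and 7.92 in wild-type DEHP livers and 7.91, 7.91, 8.04 and 7.99 in wild-type corn oil livers. Groups of the same treatment did not overlap. The difference was 0.52 ± 0.13 (1.43-fold, adjusted p = 0.021) under DEHP, where without KO-122, KO-123, WT-56 or WT-57 the adjusted p was 0.059 to 0.0821, and 0.34 ± 0.12 (adjusted p = 0.24) under corn oil. Zbp1, a sensor of Z-form nucleic acid, had values of 6.11, 6.45 and 5.66 in null DEHP livers and 5.66, 5.67, 5.68 and 5.95 in null corn oil livers, against 5.71, 5.68, 6.15 and 5.31 in wild-type DEHP livers and 5.50, 5.44, 5.14 and 5.58 in wild-type corn oil livers. Under DEHP its groups overlapped widely, with KO-123 below WT-58, and neither its DEHP difference of 0.36 ± 0.18 (adjusted p = 0.259) nor its corn oil difference of 0.33 ± 0.17 (adjusted p = 0.475) was called. Dhx58, which encodes the MDA5 partner LGP2, differed by 0.40 ± 0.18 (adjusted p = 0.196) under DEHP, by 0.68 ± 0.17 (adjusted p = 0.0704) under corn oil and by 0.54 ± 0.12 (adjusted p = 0.0104) on average. Eif2ak2, which encodes the translation-blocking kinase PKR, differed by 0.27 ± 0.09 (adjusted p = 0.0607) on average.

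**Figure D3:**
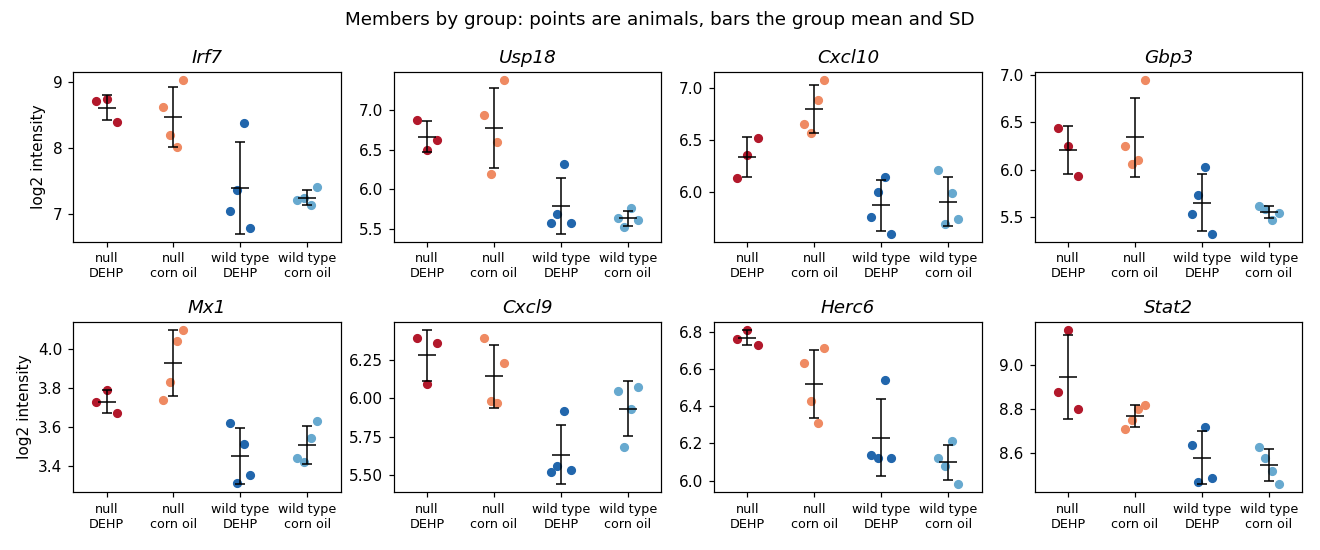
Log2 intensity (y axis, own range per panel) of 8 interferon-stimulated genes called between genotypes, by group from left to right null DEHP (n = 3), null corn oil (n = 4), wild-type DEHP (n = 4) and wild-type corn oil (n = 4); points are animals, bars the group mean and SD. Null livers lie above wild-type livers of the same treatment in all 8 panels except where WT-58 reaches them in Cxcl10 and Gbp3 and where Cxcl9 overlaps under corn oil.

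The antiviral effectors were the largest group, with 14 measured members that act on viral RNA, translation or assembly. Under DEHP 13 of 14 lay above 0 (median 0.36), where 56.8% of all genes did so, and Oasl1 was called. Under corn oil all 14 lay above 0 (median 0.539), where 46.8% of all genes did so, and Mx1 was called. Without KO-118 the corn oil median was 0.353. In that setting 4 of 14 were called under DEHP, where 2259 of all 19938 genes were called in either direction. KO-118 enters the DEHP comparison only through the shared estimate of spread. On average over treatments 10 of 14 were called as higher, where 5.23% of all genes were. Ifit1, which binds viral RNA caps, had values of 6.19, 5.64 and 5.74 in null DEHP livers and 6.15, 5.66, 5.97 and 6.77 in null corn oil livers, against 5.17, 5.45, 5.72 and 4.50 in wild-type DEHP livers and 5.26, 4.99, 5.14 and 5.51 in wild-type corn oil livers. Null corn oil livers lay above all wild-type corn oil livers, but WT-58 exceeded KO-122 under DEHP. Ifit1 differed by 0.65 ± 0.26 (adjusted p = 0.14) under DEHP and 0.91 ± 0.24 (adjusted p = 0.0959) under corn oil, and by 0.78 ± 0.18 (adjusted p = 0.0104) on average.

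Ifit3, whose human protein stabilizes IFIT1 on RNA, had values of 6.46, 6.11 and 6.24 in null DEHP livers and 6.49, 6.03, 6.25 and 7.66 in null corn oil livers, against 5.38, 5.68, 6.11 and 5.38 in wild-type DEHP livers and 5.52, 5.39, 5.59 and 5.54 in wild-type corn oil livers. KO-118 stood far above the next null liver. The difference was 0.63 ± 0.28 (adjusted p = 0.184) under DEHP and 1.10 ± 0.26 (adjusted p = 0.0544) under corn oil, and 0.86 ± 0.19 (adjusted p = 0.00832) on average. Ifit3 is a close paralog of Ifit3b, and the share of signal that the probes take from either transcript was not tested. Ifit2 differed by 0.42 ± 0.18 (adjusted p = 0.152) on average, with KO-118 at 6.22 above the other 14 livers.

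Oasl1, an oligoadenylate synthetase-like protein that in mice restrains Irf7 translation, had values of 6.98, 6.94 and 7.0 in null DEHP livers and 7.38, 6.95, 7.14 and 7.29 in null corn oil livers, against 6.63, 6.58, 6.80 and 6.41 in wild-type DEHP livers and 6.89, 6.71, 6.77 and 6.89 in wild-type corn oil livers. All 7 null livers lay above all 8 wild-type livers, as they did for Mx1 and Rsad2 and for no other member, where 0.888% of all genes did so. The difference was 0.37 ± 0.10 (1.29-fold, adjusted p = 0.0268) under DEHP, where without KO-121, KO-122, KO-123, WT-56, WT-57 or WT-59 the adjusted p was 0.0506 to 0.0803, and 0.38 ± 0.09 (adjusted p = 0.0701) under corn oil. Oasl2 had values of 6.34, 6.26 and 5.98 in null DEHP livers and 6.19, 5.99, 5.99 and 7.27 in null corn oil livers, against 5.45, 5.85, 6.27 and 5.52 in wild-type DEHP livers and 5.78, 5.90, 5.94 and 5.98 in wild-type corn oil livers. KO-118 lay far above the other 3 animals of its group, and the gene differed by 0.44 ± 0.17 (adjusted p = 0.123) on average without a call. Oas2 and Oas3, synthetases that activate RNase L, differed by 0.29 ± 0.15 (adjusted p = 0.245) and 0.25 ± 0.07 (adjusted p = 0.0243) on average, and for Oas3 without KO-121 or KO-122 the adjusted p was 0.0576 to 0.0638.

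Mx1, an antiviral GTPase, had values of 3.73, 3.79 and 3.67 in null DEHP livers and 3.74, 3.83, 4.04 and 4.10 in null corn oil livers, against 3.62, 3.31, 3.51 and 3.35 in wild-type DEHP livers and 3.44, 3.42, 3.54 and 3.63 in wild-type corn oil livers. The genotypes did not overlap although the differences were small, 0.28 ± 0.09 (adjusted p = 0.0691) under DEHP and 0.42 ± 0.09 (1.34-fold, adjusted p = 0.0253) under corn oil. For corn oil, without KO-117, KO-118, WT-52, WT-53 or WT-54 the adjusted p was 0.062 to 0.0895. These values lay near the 10th percentile of mean log2 values over all genes, 3.46, and no detection calls came with them. Mx2 differed by 0.69 ± 0.17 (adjusted p = 0.0148) on average. Rsad2, which encodes viperin, and Cmpk2, a nucleotide kinase gene, differed by 0.53 ± 0.12 (adjusted p = 0.00865) and 0.46 ± 0.10 (adjusted p = 0.00794) on average. Bst2, which encodes the virion tether tetherin, differed by 0.03 ± 0.07 (adjusted p = 0.827), with a 95% interval of -0.11 to 0.18.

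Rtp4, an antiviral protein named as a receptor transporter, had values of 7.80, 7.83 and 7.71 in null DEHP livers and 7.59, 7.37, 7.46 and 8.49 in null corn oil livers, against 6.74, 6.84, 7.71 and 6.76 in wild-type DEHP livers and 7.16, 7.28, 7.09 and 7.13 in wild-type corn oil livers. WT-58 matched the lowest null DEHP liver while the other 3 wild-type DEHP livers lay far below. The difference was 0.76 ± 0.24 (adjusted p = 0.0539) under DEHP, 0.56 ± 0.22 (adjusted p = 0.299) under corn oil and 0.66 ± 0.16 (adjusted p = 0.0156) on average. Samd9l, a translation repressor, had values of 5.35, 5.36 and 5.17 in null DEHP livers and 5.92, 5.06, 5.46 and 6.28 in null corn oil livers, against 5.19, 5.24, 5.15 and 4.93 in wild-type DEHP livers and 4.96, 4.85, 5.10 and 4.72 in wild-type corn oil livers. Its null corn oil livers spread widely, from KO-116 inside the wild-type range to KO-118, and the groups overlapped under both treatments. Samd9l differed by 0.17 ± 0.20 (adjusted p = 0.696) under DEHP and 0.77 ± 0.18 (adjusted p = 0.0585) under corn oil. Its average of 0.47 ± 0.14 (adjusted p = 0.0356) lost its call in 9 of 15 leave-outs: without KO-121, KO-122, KO-115, WT-56, WT-58, WT-59, WT-52, WT-53 or WT-55 the adjusted p was 0.0521 to 0.0917.

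The 3 measured interferon-inducible GTPases, which attack vacuoles that hold intracellular pathogens, all lay above 0 in both genotype comparisons and were called on average. Gbp3, a guanylate-binding protein, had values of 6.44, 6.25 and 5.93 in null DEHP livers and 6.25, 6.06, 6.10 and 6.95 in null corn oil livers, against 5.53, 5.73, 6.03 and 5.32 in wild-type DEHP livers and 5.62, 5.58, 5.47 and 5.54 in wild-type corn oil livers. Under corn oil the genotypes did not overlap, and under DEHP WT-58 exceeded KO-123. The difference was 0.55 ± 0.19 (adjusted p = 0.0839) under DEHP and 0.79 ± 0.18 (1.73-fold, adjusted p = 0.0425) under corn oil, where without KO-122, KO-115, KO-117, KO-118, WT-56, WT-57, WT-52, WT-53, WT-54 or WT-55 the adjusted p was 0.0506 to 0.123. Gbp genes are close paralogs, and signal shared between them was not tested.

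Irgm1, a regulator of the other immunity-related GTPases, had values of 8.29, 8.58 and 8.37 in null DEHP livers and 8.25, 7.78, 8.08 and 8.46 in null corn oil livers, against 7.75, 7.83, 8.06 and 7.95 in wild-type DEHP livers and 7.80, 7.70, 7.68 and 7.71 in wild-type corn oil livers. The DEHP groups did not overlap, and under corn oil KO-116 lay just below WT-52. Irgm1 differed by 0.52 ± 0.13 (1.43-fold, adjusted p = 0.014) under DEHP, where without KO-122 the adjusted p was 0.0916, and by 0.42 ± 0.12 (adjusted p = 0.103) under corn oil. Iigp1, an effector GTPase, had values of 10.23, 10.36 and 10.39 in null DEHP livers and 9.96, 10.09, 10.05 and 10.22 in null corn oil livers, against 9.85, 9.89, 10.20 and 10.10 in wild-type DEHP livers and 9.43, 10.05, 9.87 and 9.55 in wild-type corn oil livers. Under DEHP the lowest null liver lay just above WT-58, and under corn oil KO-115 lay below WT-53. Its differences of 0.32 ± 0.13 (adjusted p = 0.137) under DEHP and 0.35 ± 0.12 (adjusted p = 0.197) under corn oil were not called, and its average was 0.33 ± 0.09 (adjusted p = 0.0205), where without KO-122 the adjusted p was 0.0571.

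PARP9 and DTX3L form an ADP-ribosylation and ubiquitin ligase complex, and PARP14 is a related enzyme. Dtx3l had values of 8.21, 8.49 and 8.15 in null DEHP livers and 8.11, 8.06, 8.21 and 8.17 in null corn oil livers, against 7.80, 7.54, 8.23 and 7.80 in wild-type DEHP livers and 7.67, 7.86, 7.92 and 8.0 in wild-type corn oil livers. WT-58 exceeded 2 of 3 null DEHP livers, and the corn oil groups did not overlap. The difference was 0.44 ± 0.13 (1.36-fold, adjusted p = 0.0365) under DEHP, where without KO-121, KO-122, WT-56, WT-57 or WT-59 the adjusted p was 0.0594 to 0.196, and 0.28 ± 0.12 (adjusted p = 0.346) under corn oil. Parp14 had values of 7.59, 7.72 and 7.49 in null DEHP livers and 7.42, 7.19, 7.22 and 7.90 in null corn oil livers, against 6.88, 6.93, 7.46 and 6.97 in wild-type DEHP livers and 7.12, 7.08, 6.97 and 6.93 in wild-type corn oil livers. Groups of the same treatment did not overlap, but WT-58 lay close to KO-123. Parp14 differed by 0.53 ± 0.16 (1.45-fold, adjusted p = 0.0381) under DEHP, where without KO-121, KO-122, KO-123, WT-56, WT-57 or WT-59 the adjusted p was 0.055 to 0.161, and by 0.41 ± 0.14 (adjusted p = 0.23) under corn oil. Parp9 differed by 0.26 ± 0.09 (adjusted p = 0.0859) under DEHP and by 0.28 ± 0.06 (adjusted p = 0.00826) on average.

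Of the remaining 4 measured members, Xaf1 and Lgals3bp were called under DEHP. Xaf1, a pro-apoptotic partner of XIAP, had values of 5.74, 6.06 and 5.59 in null DEHP livers and 5.43, 5.47, 5.51 and 6.05 in null corn oil livers, against 4.96, 5.10, 5.63 and 4.85 in wild-type DEHP livers and 5.25, 5.15, 5.23 and 4.85 in wild-type corn oil livers. WT-58 lay above KO-123, while the corn oil groups did not overlap. The difference was 0.66 ± 0.18 (1.58-fold, adjusted p = 0.0287) under DEHP, where without KO-121, KO-122, WT-56, WT-57 or WT-59 the adjusted p was 0.0579 to 0.159, and 0.49 ± 0.17 (adjusted p = 0.212) under corn oil. Lgals3bp, a secreted glycoprotein that binds galectins, had values of 10.15, 10.15 and 9.79 in null DEHP livers and 9.76, 9.45, 9.55 and 9.74 in null corn oil livers, against 9.02, 9.19, 10.12 and 9.25 in wild-type DEHP livers and 9.03, 9.20, 9.0 and 9.08 in wild-type corn oil livers. Under DEHP WT-58 nearly reached the top null livers, and under corn oil the groups did not overlap. It differed by 0.63 ± 0.19 (1.55-fold, adjusted p = 0.0424) under DEHP and by 0.55 ± 0.18 (adjusted p = 0.172) under corn oil. The DEHP call was lost in 10 of 15 leave-outs, since without KO-121, KO-122, KO-117, WT-56, WT-57, WT-59, WT-52, WT-53, WT-54 or WT-55 the adjusted p was 0.052 to 0.164.

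Tap1, a subunit of the peptide transporter for MHC class I, had values of 7.68, 7.54 and 7.43 in null DEHP livers and 7.53, 7.46, 7.46 and 7.48 in null corn oil livers, against 7.40, 7.41, 7.66 and 7.48 in wild-type DEHP livers and 7.47, 7.43, 7.48 and 7.45 in wild-type corn oil livers. All 4 groups overlapped, and the average difference was 0.04 ± 0.05 with a 95% interval of -0.06 to 0.15. Ifi35 likewise differed by 0.00 ± 0.06, with an interval of -0.13 to 0.14. Tap1, Ifi35, Irf1 and Bst2 had the 4 smallest averages of the 36 members.

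Without KO-118 and WT-58 together, the members called as higher in null livers numbered 25 under DEHP, 9 under corn oil and 29 on average, where 5.05%, 0.747% and 5.19% of all genes were called as higher in the same setting. Their medians were then 0.562, 0.313 and 0.432. Mx1 lost its corn oil call (adjusted p = 0.0754) and Samd9l its average call (adjusted p = 0.0545). Rtp4 under DEHP reached 1.0 (adjusted p = 3.47e-06), against 0.76 (adjusted p = 0.0539) with every animal. WT-58 and KO-118 were the highest of their groups for Rtp4, so leaving them out also narrowed its spread.

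DEHP itself was followed by no called member in either genotype. In null livers 0 of 36 were called, where 0.471% of all genes were called. An unadjusted p below 0.05 was seen in 5 of 36 and in 2450 of all 19938 genes. In wild-type livers 0 of 36 were called, where 3.86% of all genes were called. Here 4 of 36 had an unadjusted p below 0.05, as did 3341 of all 19938 genes. The median difference, DEHP over corn oil, was -0.011 in null livers and 0.085 in wild-type livers, against 0.014 and -0.015 over all genes. Differences ran from -0.45 to 0.4 in null livers and from -0.3 to 0.32 in wild-type livers. These values do not show that DEHP left the genes as they were.

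**Figure D4:**
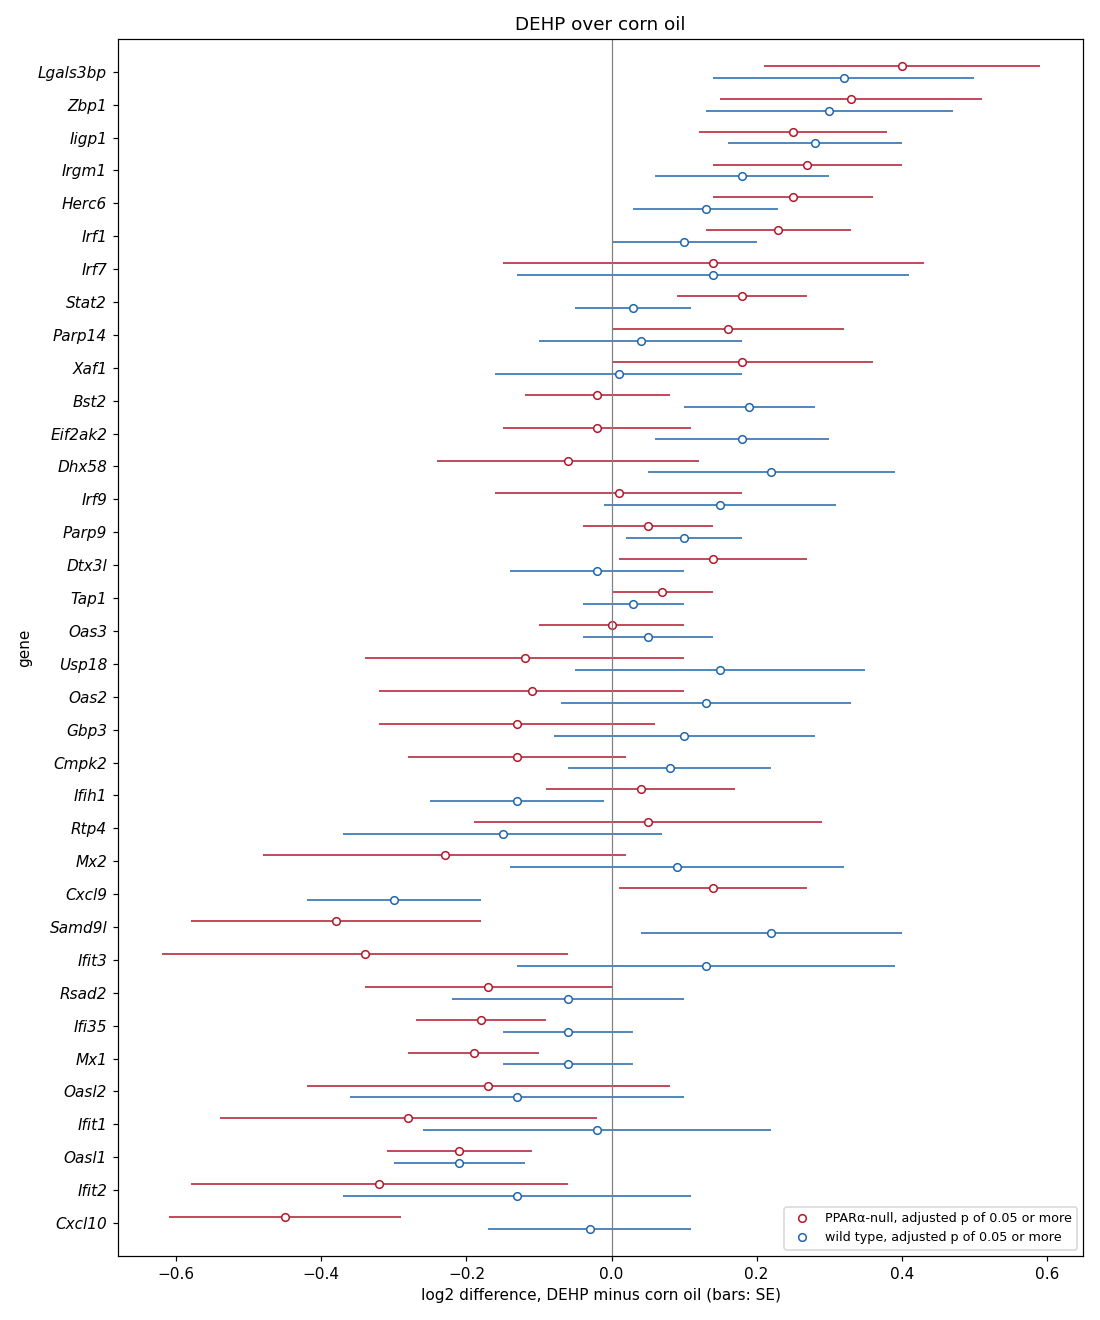
Log2 difference of DEHP over corn oil (x axis) for 36 interferon-stimulated genes (y axis, ordered by the mean of both differences), in PPARα-null livers (red, 3 DEHP and 4 corn oil) and wild-type livers (blue, 4 and 4); bars are standard errors. No point is filled, since none had an adjusted p below 0.05, and the values spread on both sides of 0 between -0.45 and 0.4.

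In null livers the chemokine Cxcl10 had the lowest difference, -0.45 ± 0.16 (adjusted p = 0.215), and it was the 1 member whose DEHP livers all lay below the corn oil livers, where 4.42% of all genes did so. Lgals3bp, Irf1, Iigp1 and Herc6 had DEHP livers that all lay above the corn oil livers, where 5.57% of all genes did so. Their differences were 0.40 ± 0.19 (adjusted p = 0.406) for Lgals3bp, 0.23 ± 0.10 (adjusted p = 0.392) for Irf1, 0.25 ± 0.13 (adjusted p = 0.456) for Iigp1 and 0.25 ± 0.11 (adjusted p = 0.375) for Herc6. Among the 14 antiviral effectors 13 lay below 0 in null livers, with a median of -0.182, where 45.4% of all genes did so. This count rested on KO-118, since without that animal 5 of 14 lay below 0, with a median of 0.013, where 47.9% of all genes did so. Samd9l read -0.38 ± 0.20 (adjusted p = 0.464) and Ifit3 -0.34 ± 0.28 (adjusted p = 0.696) there, with KO-118 the highest corn oil liver for both.

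In wild-type livers the largest differences after DEHP were those of Lgals3bp, 0.32 ± 0.18 (adjusted p = 0.392), Zbp1, 0.30 ± 0.17 (adjusted p = 0.407), and Cxcl9, -0.30 ± 0.12 (adjusted p = 0.215). For Lgals3bp and Zbp1 the highest DEHP liver was WT-58. No member had DEHP and corn oil livers that did not overlap, where 6.1% of all genes lay wholly higher and 5.77% wholly lower after DEHP. Irf7 differed by 0.14 ± 0.27 with a 95% interval of -0.43 to 0.71. Without WT-58 and KO-118 together, 1 member was called, Rtp4, which was lower after DEHP with a difference of -0.38 (adjusted p = 0.0109). With every animal it read -0.15 ± 0.22 (adjusted p = 0.816). WT-58 was the highest DEHP liver for Rtp4 and was left out for such values, so the p-value without it is descriptive. The median of the 36 in wild-type livers was then -0.027, and in null livers 0.089.

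The DEHP response of null livers minus that of wild-type livers was called for 0 of 36 members, where 0.898% of all genes were called. An unadjusted p below 0.05 was seen in 2 of 36 members and in 2669 of all 19938 genes. The 3 largest values were -0.60 ± 0.27 (adjusted p = 0.343) for Samd9l, -0.47 ± 0.38 (adjusted p = 0.659) for Ifit3 and 0.44 ± 0.18 (adjusted p = 0.284) for Cxcl9. For Irf7 the difference of responses was 0.00 ± 0.40, with a 95% interval of -0.84 to 0.84. Without KO-118 and WT-58 together, Rtp4 was called with 0.69 (adjusted p = 0.012), against 0.20 ± 0.33 (adjusted p = 0.851) with every animal. The first p-value is descriptive, since both animals were left out for their high values. The genotype comparisons share their animals with the DEHP comparisons, so these values are not independent of each other.

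The rest of the interferon pathway was followed in lists of genes that are not members. Of 14 measured interferon genes, 0 were called in any comparison, with median differences of null over wild-type of 0.108 under DEHP and -0.025 under corn oil. For null over wild type, 1 of these 14 had an unadjusted p below 0.05 under DEHP and 0 under corn oil. Of all 19938 genes 4588 and 2383 did so, the background for such counts in the lists that follow. Their signal varied, from group means of 2.04 to 2.23 for Ifna11 and 2.73 to 2.77 for Ifna12 up to 7.9 to 8.01 for Ifnl2. The first 2 lay below the 10th percentile of mean log2 values over all genes, 3.46. No detection calls came with the values, so the lack of calls does not show that interferon transcripts were alike. Among 10 genes of interferon receptors and JAK-STAT signalling, the receptor subunit Ifnar2 rose with DEHP by 0.46 ± 0.08 (adjusted p = 0.0213) in null livers and by 0.29 ± 0.07 (adjusted p = 0.0318) in wild-type livers. It was the 1 gene of the 10 called with DEHP, where 0.16% of all genes rose in null and 2.29% in wild-type livers. Jak1, the kinase shared by the interferon receptors, was higher in null livers under DEHP by 0.34 ± 0.06 (adjusted p = 0.00231), and the type II receptor subunit Ifngr2 was lower, with a difference of -0.33 ± 0.09 (adjusted p = 0.0274). That is 1 of the 10 called as higher and 1 as lower, where 5.09% and 5.61% of all genes were. Under corn oil 0 of these 10 were called between genotypes, with 1 at an unadjusted p below 0.05. None of 6 inhibitors of interferon signalling was called by limma in any comparison, with 3 at an unadjusted p below 0.05 for null over wild-type under DEHP. Without KO-118 and WT-58 together, 0 of the 10 receptor and JAK-STAT genes were called as lower between genotypes under DEHP, 0 were called with DEHP in wild-type livers, and 1 of the 6 inhibitors was called on average.

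Of 15 genes of nucleic acid sensing and signalling, 4 were higher in null livers under DEHP and 1 under corn oil, where 5.09% and 0.642% of all genes were. The counts were 5 and 1 without KO-118 and WT-58 together, where 2123 and 270 of all 19938 genes were called in either direction. Irf5, a transcription factor downstream of Toll-like receptors, had values of 7.66, 7.61 and 7.67 in null DEHP livers and 7.52, 7.71, 7.83 and 7.69 in null corn oil livers, against 6.81, 6.68, 6.61 and 6.99 in wild-type DEHP livers and 7.56, 7.78, 7.48 and 7.20 in wild-type corn oil livers. The wild-type DEHP livers lay below all other livers. Irf5 fell with DEHP in wild-type livers, with a difference of -0.73 ± 0.11 (adjusted p = 0.00111), and was higher in null than in wild-type DEHP livers by 0.88 ± 0.12 (adjusted p = 0.000216). Its corn oil difference of 0.18 ± 0.11 (adjusted p = 0.551) and its difference of responses, 0.69 ± 0.16 (adjusted p = 0.0552), were not called. Irf3, the factor that first induces interferon, fell with DEHP in wild-type livers, with a difference of -0.24 ± 0.05 (adjusted p = 0.00894), and its response differed between genotypes by 0.37 ± 0.07 (adjusted p = 0.0216). Irf5 and Irf3 were the 2 of 15 that fell with DEHP in wild-type livers, where 1.57% of all genes fell. The RNA sensor gene Ddx58, which encodes RIG-I, was higher under DEHP by 0.48 ± 0.11 (adjusted p = 0.0084), the kinase gene Ikbke by 0.44 ± 0.11 (adjusted p = 0.0165), and the RNA-sensing receptor gene Tlr7 under corn oil by 0.44 ± 0.09 (adjusted p = 0.0173).

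A further list held 41 measured interferon-stimulated genes outside the 36. Under DEHP 11 of them were higher in null livers and 0 lower, where 5.09% of all genes were called as higher, and under corn oil 2 were higher and 0 lower, where 0.642% were. With KO-118 and WT-58 left out, the counts were 16 and 4, where 2123 and 270 of all 19938 genes were called in either direction. Their median differences were 0.255 under DEHP and 0.301 under corn oil. Ifitm3, which blocks viral entry, had values of 12.34, 12.56 and 12.17 in null DEHP livers and 12.07, 12.10, 12.17 and 12.23 in null corn oil livers, against 11.33, 10.97, 11.90 and 11.48 in wild-type DEHP livers and 11.63, 11.62, 11.51 and 11.61 in wild-type corn oil livers. All null livers lay above all wild-type livers, and the difference under DEHP was 0.94 ± 0.15 (adjusted p = 0.000916). Gbp7 was higher under DEHP by 0.62 ± 0.13 (adjusted p = 0.00617), the helicase gene Ddx60 by 0.79 ± 0.19 (adjusted p = 0.0122) and the galectin gene Lgals9 by 0.31 ± 0.07 (adjusted p = 0.0139). Under corn oil Ifi27 was higher by 0.92 ± 0.17 (adjusted p = 0.00949) and Slfn2 by 0.67 ± 0.13 (adjusted p = 0.012). With DEHP, Ube2l6, the conjugating enzyme of ISG15, rose in wild-type livers by 0.45 ± 0.11 (adjusted p = 0.0286). It was the 1 of the 41 called there, 2.44% of the list, a share near the 2.29% of all genes that rose.

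Of 15 measured genes of antigen processing and presentation, 1 was higher in null livers under each treatment. That is 6.67% of the list, a share near the 5.09% of all genes called as higher under DEHP and above the 0.642% under corn oil, and without KO-118 and WT-58 together the corn oil count was 0. B2m, the light chain of MHC class I, was higher under DEHP by 0.33 ± 0.06 (adjusted p = 0.0021), and the immunoproteasome subunit Psmb8 under corn oil by 0.38 ± 0.08 (adjusted p = 0.0342). With DEHP 0 of the 15 were called in null livers, with 8 at an unadjusted p below 0.05, where 2450 of all 19938 genes were. In wild-type livers 3 rose and 0 fell, where 2.29% of all genes rose. Without WT-58 and KO-118 together 1 of the 15 rose in wild-type livers, where 575 of all 19938 genes were called in either direction. The 3 were the proteasome activator genes Psme2, by 0.38 ± 0.08 (adjusted p = 0.013), and Psme1, by 0.41 ± 0.09 (adjusted p = 0.0213), and the tapasin gene Tapbp, by 0.27 ± 0.07 (adjusted p = 0.0478). The difference of responses was -0.31 ± 0.12 (adjusted p = 0.237) for Psme2, -0.07 ± 0.14 (adjusted p = 0.885) for Psme1 and 0.02 ± 0.11 (adjusted p = 0.954) for Tapbp.

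Markers of some liver cell types also differed between genotypes, while those of others held no call. All 12 Kupffer cell markers lay above 0 for null over wild-type livers under both treatments, with medians of 0.302 under DEHP and 0.266 under corn oil. Of all genes, 56.8% lay above 0 under DEHP and 46.8% under corn oil. Under DEHP 1 of the 12 was called, Csf1r by 0.44 ± 0.11 (adjusted p = 0.0193). That is 8.33% of the list, a share near the 5.09% of all genes called as higher. Under corn oil 0 of the 12 were called, where 0.642% of all genes were called as higher. On average over treatments 3 of the 12 were called as higher, Csf1r, Cd68 and C1qc, where 5.23% of all genes were. An unadjusted p below 0.05 was seen in 11 of the 12 and in 4664 of all 19938 genes. Without KO-118 and WT-58 together 7 of the 12 were called under DEHP, 0 under corn oil and 6 on average. In that setting 2123, 270 and 2211 of all 19938 genes were called in either direction. The mean log2 value of the 12 ran from 7.9 to 8.19 in null DEHP livers and from 7.83 to 8.11 in null corn oil livers, against 7.52 to 8.06 in wild-type DEHP livers and 7.62 to 7.83 in wild-type corn oil livers. The highest of the wild-type DEHP livers was WT-58 and the highest of the null corn oil livers KO-118, the animals that were also highest in most members. In null DEHP livers KO-121 was highest both in this mean, 8.19, and in the median deviation of the members, 0.267. In wild-type corn oil livers the order differed. WT-53 had the highest Kupffer mean, 7.83, and the lowest median deviation of the members, -0.234. The part of Kupffer cells in the genotype difference of the members was not tested. Of 9 hepatocyte markers, 2 were higher in null livers under DEHP, where 5.09% of all genes were. These were Apob, by 0.32 ± 0.06 (adjusted p = 0.00272), and Hnf4a, by 0.33 ± 0.08 (adjusted p = 0.00995). Under corn oil 1 of the 9 was higher, Pck1 by 0.74 ± 0.14 (adjusted p = 0.014), where 0.642% of all genes were. Under either treatment 0 of the 9 were lower. The mean of the 9 was higher in every null liver than in every wild-type liver, and the part of this shift in the members was not tested.

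**Figure D5:**
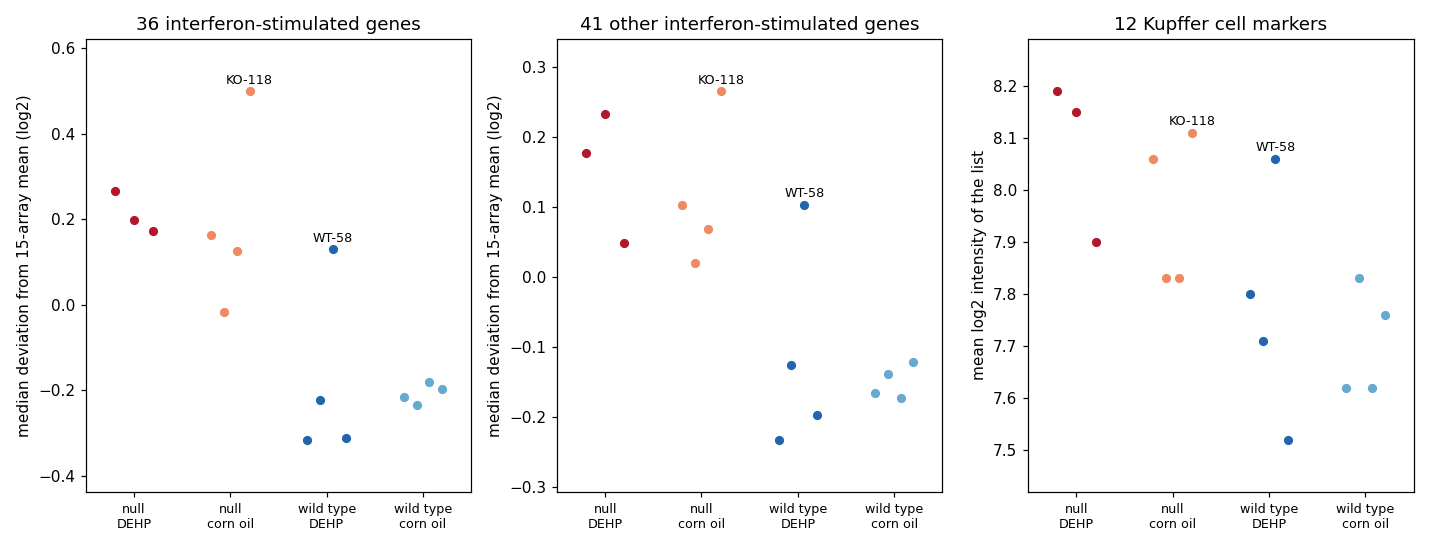
One point per animal in each group, null left of wild type: the median deviation from the 15-array mean of 36 interferon-stimulated genes (left, log2), the same for 41 other interferon-stimulated genes (middle) and the mean log2 intensity of 12 Kupffer cell markers (right). KO-118 and WT-58 are the highest animals of their groups in all 3 panels.

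Of 10 sinusoidal endothelial markers, 7 were higher in null livers under DEHP and 0 under corn oil, where 5.09% and 0.642% of all genes were, and 4 were higher on average. With DEHP in wild-type livers 3 of the 10 fell, where 1.57% of all genes fell. With KO-118 and WT-58 left out, 6 were higher under DEHP, 0 under corn oil and 5 on average. Over the whole array 2123, 270 and 2211 of 19938 genes were then called in either direction. Their mean log2 value ran from 8.47 to 8.54 in null DEHP livers and from 8.33 to 8.45 in null corn oil livers, against 8.05 to 8.26 in wild-type DEHP livers and 8.26 to 8.43 in wild-type corn oil livers. KO-118 and WT-58 had the highest mean of their groups for these endothelial markers too. Stab2, a scavenger receptor of these cells, differed in its DEHP response between genotypes by 0.43 ± 0.08 (adjusted p = 0.0234). The part of endothelial cells in the members called under DEHP was not tested. Of 9 T cell, 9 NK cell and 7 B cell markers, 0 were called in any comparison, and for null over wild type 1 NK cell marker had an unadjusted p below 0.05 under corn oil and 0 of the rest under either treatment.

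Neutrophil and acute phase genes were read alongside. The neutrophil gene S100a8 rose with DEHP in wild-type livers by 1.78 ± 0.24 (adjusted p = 0.00061), 1 of 10 neutrophil markers to do so, where 2.29% of all genes rose. Between genotypes 1 of the 10 was higher in null livers under DEHP, Ly6g by 0.30 ± 0.08 (adjusted p = 0.0299), where 5.09% of all genes were. Under corn oil 0 of the 10 were called, and without KO-118 and WT-58 together 0 were called. The acute phase gene Saa1 had values of 11.06, 11.59 and 7.95 in null DEHP livers and 8.23, 7.94, 9.51 and 7.66 in null corn oil livers, against 11.78, 11.43, 11.61 and 11.77 in wild-type DEHP livers and 6.89, 6.38, 6.93 and 7.55 in wild-type corn oil livers. KO-123, the DEHP-treated null liver with the lowest Saa1, also had the lowest value of its group in 22 of 36 members, and all wild-type DEHP livers were high. In null corn oil livers the order was the other way. KO-118 had the lowest Saa1 there, 7.66, and was the highest of its group in 29 of 36 members. WT-58, at 11.61, lay within the Saa1 range of its group. After DEHP, Saa1 read 1.86 ± 0.63 (adjusted p = 0.205) in null livers and rose by 4.71 ± 0.58 (adjusted p = 0.000215) in wild-type livers. Saa2 read 1.96 ± 0.67 (adjusted p = 0.212) in null livers and rose by 5.66 ± 0.62 (adjusted p = 9.3e-05) in wild-type livers. The 7 conventional dendritic cell markers had 0 calls between genotypes, with 1 at an unadjusted p below 0.05 under each treatment. Of 4 plasmacytoid dendritic cell markers 1, Cox6a2, was higher in null livers under DEHP, by 0.61 ± 0.19 (adjusted p = 0.0476), where 5.09% of all genes were. The median of the 4 was 0.146 there, and 0 of the 4 were called under corn oil or on average.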

How the data were processed

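Liver RNA of 15 mice was measured on single-colour Affymetrix arrays, and the values used are linear intensities as deposited by the authors. Their array medians were close to each other. The normalization method, any array batches and detection calls were not given in the sources used here. RNA was isolated with a mirVana kit and labelled with biotin, per the labels' protocols. Log2 was taken with no further scaling. Of 35494 probe sets, 21789 named 1 gene symbol, and taking the brightest probe set where a gene had several gave 19938 genes. In limma 3.58.1 (R 4.3.3) each group had its own mean in 1 fit of the 15 arrays, with Benjamini-Hochberg adjustment over all genes and a threshold of 0.05. Adjusted p-values are limma's. The residual degrees of freedom were 11. The fit was checked on simulated data. Tables and figures were made in Python 3.11.15 with pandas 2.3.3 and matplotlib 3.10.9. Members, gene lists and the named-gene rule were chosen with earlier results of these data known. That rule gave animal values for a fixed set of members, for each member called in a comparison and for the 3 largest differences per comparison, and values for up to 4 called genes per pathway list and comparison. Irf5, Ifitm3 and Saa1 were given per animal after their values were seen. Alternatives were quantile normalization, median centring, log2(intensity + 16), a filter at a mean log2 of 5, averaged probe sets, limma-trend, fits of only the groups compared, and leaving out animals. The number of arrays limits the precision, and a p-value covers the spread between these animals.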

Additional observations from a re-analysis of the deposited data

Results flagged for a closer look

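Among 108 groups of 4 animals, 10 held 1 animal whose gap to its nearest neighbour took up an unusual share of the group's range, where chance gives about 1 in 20. WT-58 was that animal in 5 cases, always as the highest wild-type DEHP liver. The gap was 0.851 of the range for Usp18, 0.899 for Cxcl9, 0.846 for Parp14, 0.892 for Rtp4 and 0.944 for Herc6. KO-118 was that animal in 4 cases, as the highest null corn oil liver, with 0.834 for Ifit2, 0.847 for Oasl2, 0.882 for Xaf1 and 0.924 for Zbp1. The last case was WT-55, the lowest wild-type corn oil liver for Cmpk2, with 0.86. Genes of 1 animal are not independent, so these cases repeat a small number of animals.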

How the results depend on the processing

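No paired analysis was possible because the groups share no animal number. Members called between genotypes under DEHP numbered 12, and 7 with arrays centred on their median, 7 with only the groups compared, 25 without KO-118 and WT-58 together, and 3 to 18 with 1 animal left out. Under corn oil they numbered 5, and 3 with log2(intensity + 16), 10 among genes with a mean log2 of 5 or more, 9 with limma-trend, 9 without KO-118 and WT-58 together, and 2 to 12 with 1 animal left out. The averaged contrast gave 27, and 23 to 28 with 1 animal left out. For DEHP in wild-type livers and for the difference of responses the count of 0 became 1 without KO-118 and WT-58 together, and stayed 0 in the other alternatives run, as did the count for DEHP in null livers in all of them. The filter tests fewer genes, and leaving out animals tests fewer samples; the cause of the other shifts was not tested. Of 4884 recomputed values of single members, 95 lost a call, 74 gained one and 0 called values changed sign. Rescaling moved the median of all genes by at most 0.052. The number of called genes over the whole array also moved, from 1019 to 2569 for null over wild type under DEHP and from 159 to 292 under corn oil. With 3 or 4 animals a group and no detection calls, small differences such as those of Mx1 were limited by signal and spread.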
